A study of Mus musculus with 12 samples.

Results

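The miR-467 group of the Sfmbt2 intron comprised 9 assays of the array used here, namely mmu-miR-467a, mmu-miR-467b, mmu-miR-467c, mmu-miR-467d, mmu-miR-467e, mmu-miR-669a, mmu-miR-297c, mmu-miR-297b-5p and mmu-miR-466h, where mmu stands for mouse and is left out below. They were taken by name, as all mouse assays whose name starts with miR-297, miR-466, miR-467 or miR-669, out of 335 mouse assays and 375 miRNA assays in all. No measured value entered the choice. Levels were measured by quantitative PCR on TaqMan low-density arrays in primary lung endothelial cells of wild type male C57BL/6N mice aged 6 to 10 weeks, with 3 mice pooled for each isolation. According to the methods the cells came from 4 independent isolations, so that the 12 arrays share isolations, but which arrays share one is not given. The cells were enriched with antibody-coated magnetic beads against CD144 and CD31 and starved for 2 h. The 4 control arrays held unstimulated cells, 4 arrays held cells given Tri-DAP (labelled TD, a ligand of the receptor NOD1) and 4 held cells given MDP (a ligand of NOD2), both at 10 μg/mL for 6 h. Each array is named here by its group and by the number in its label. The cells were a bead-enriched primary population, in which fewer cells of a type and less RNA per cell cannot be told apart.

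MicroRNAs are short RNAs that, bound to an Argonaute protein, pair through their seed (bases 2 to 8) with messenger RNAs and lower the protein made from them. Sfmbt2 encodes a Polycomb group protein and is an imprinted gene, known for its expression from the paternal copy in extraembryonic tissue. One of its introns carries, in mouse and rat, a long array of duplicated miRNA genes. NOD1 and NOD2 are cytosolic receptors for fragments of the bacterial cell wall, and the study asked which endothelial miRNAs change when either is stimulated.

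In the RefSeq annotation of the mouse assembly GRCm38.p6, 72 miRNA genes lay within Sfmbt2, and 71 of them carried one of the 4 family names, with 5 Mir297, 23 Mir466, 14 Mir467 and 29 Mir669 genes. The 9 assays corresponded to 29 of these genes. miR-467a had 10 gene copies in the intron array and miR-669a had 12, so that a signal from either assay cannot be given to 1 copy. The other 7 had 1 gene each. Counted in the order of the genes along the chromosome, Mir467c was the 13th, Mir467b the 25th, Mir467e the 53rd and Mir467d the 55th, with a single gene, Mir466p, between the last pair. Mir297c was the 57th, Mir297b the 60th and Mir466h the 67th.

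The table of mature sequences from RefSeq matched 0 of the 9 names. It held 8 relatives of the same names whose genes lie outside Sfmbt2 and which had no assay on the array. The 3 of the miR-467 name are shown because they display the repeat-like sequence of these families, with the seed in capitals and positions on GRCm38.p6.
miR-467f (chr11:69635419-69635439, minus strand): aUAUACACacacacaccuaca
miR-467g (chr5:34732872-34732892, minus strand): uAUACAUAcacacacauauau
miR-467h (chr9:115381898-115381919, plus strand): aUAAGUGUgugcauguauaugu
A purine was followed by a pyrimidine, or the reverse, in 90.0% of the steps of miR-467f, in 100% of those of miR-467g and in 90.5% of those of miR-467h, against a median of 45% over 1738 mature mouse miRNAs. Each of the 3 had a seed of its own.

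On every array 231 to 254 of the 375 miRNA assays reached the detection threshold, and 174 did so on all 12 arrays. The endothelial miR-126-3p and miR-126-5p were measured on all arrays at mean threshold cycles (Ct, the PCR cycle at which the signal passes the threshold, so that a lower Ct means more RNA) of 19.7 and 21.3. The 5 epithelial markers of the miR-200 family had means from 29.7 to 32.5, the leukocyte markers miR-223 and miR-142-3p 31.3 and 34.3, and miR-143 and miR-145, which smooth muscle and fibroblasts express, 27.9 and 28.3. The leukocyte marker miR-142-5p was measured on 2 arrays, and the striated muscle markers miR-1, miR-133a and miR-133b on 8, 6 and 1. The small nuclear RNA U6, to which the authors normalized, ranged in mean Ct from 18.3 on Tri-DAP 14 to 21.6 on Tri-DAP 8. These 2 arrays had the extreme U6 values of the series, so that log2 fold changes of Tri-DAP against control are also given without each of them.

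All 9 miRNAs of the group were measured in at least 1 well, and they fell into 3 sets by how often this happened. miR-467a, miR-467b and miR-467c were measured on 12 of 12 arrays. miR-467d, miR-467e and miR-669a were measured on 11. miR-297c and miR-297b-5p reached the threshold on 3 arrays and miR-466h on 1. In all, 76 of 108 wells (70.4%) gave a value, against 67.6% of the 3912 wells of the other mouse assays. By treatment these were 25 of 36 wells in control, 26 of 36 with Tri-DAP and 25 of 36 with MDP. The number of arrays on which a miRNA was measured was compared between groups by Fisher's exact test (two-sided, lowest p = 0.429 and adjusted p = 1 over 27 tests). A p of 0.0286, the lowest for 4 arrays against 4, needs values on all arrays of one group and on none of the other. The members were measured too often or too rarely for such a split. None of the 27 tests could therefore have reached 0.05, and they cannot decide whether detection differed.

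**Figure D1:**
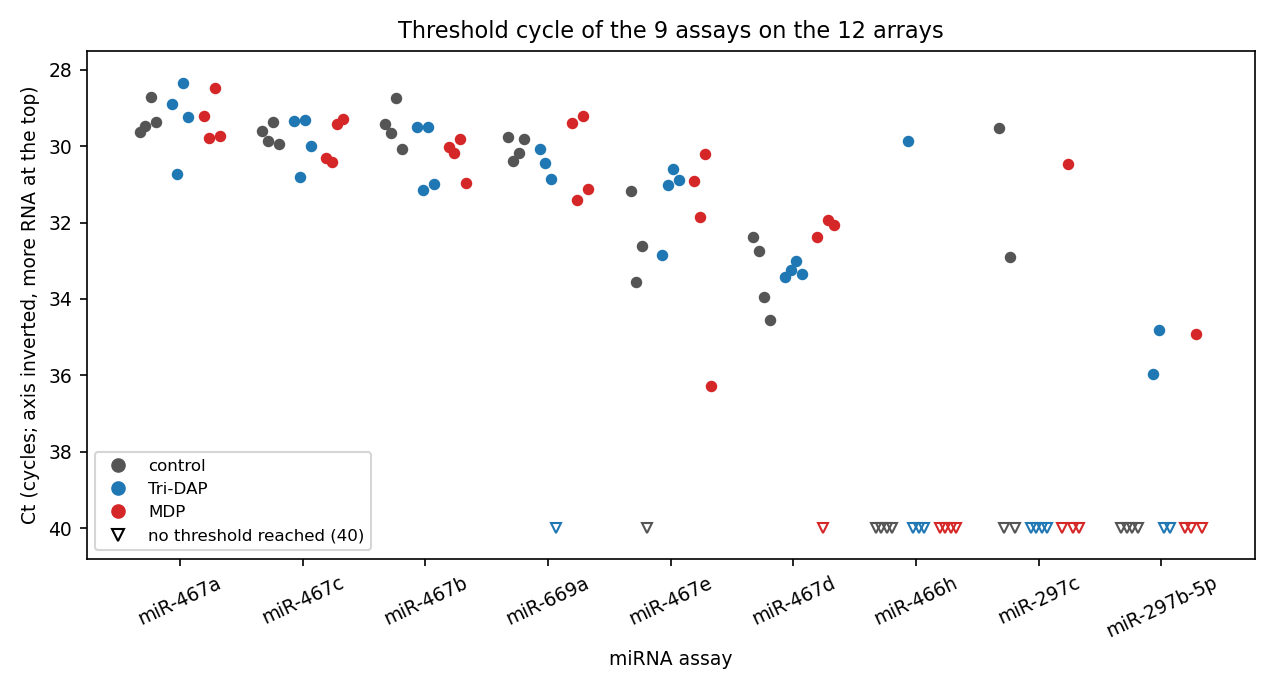
Ct in cycles (vertical axis, inverted so that more RNA is at the top) of the 9 assays on the 12 arrays, with 1 point per array coloured by group and open triangles at 40 for wells in which no threshold was reached. miR-467a, miR-467b and miR-467c lie between 28.3 and 31.1 on all arrays, whereas miR-466h, miR-297c and miR-297b-5p have values on 1 to 3 arrays.

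Averaged over the arrays with a value, miR-467a came up first, at a Ct of 29.3 ± 0.66 (SD, n = 12). It was followed by miR-467c at 29.8 ± 0.50 (n = 12), miR-467b at 30.0 ± 0.73 (n = 12) and miR-669a at 30.2 ± 0.69 (n = 11). miR-467e and miR-467d came later, at 32.0 ± 1.76 (n = 11) and 33.0 ± 0.81 (n = 11). The order is that of the assays' cycles and not of copy numbers, because assays differ in efficiency. miR-467a was earlier than miR-467c on 10 of 12 arrays, by 0.51 ± 0.45 cycles (SD of the difference). The other neighbours in this order, except miR-669a and miR-467e, differed by less than the SD of their difference. miR-467d was later than miR-467a on all 11 arrays on which both were measured, by 3.75 ± 1.05 cycles. miR-467a came 34.7% of the way down the 320 miRNAs measured on any array when these are ordered by mean Ct, and miR-467d 69.7%.

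miR-467a, which has been described as a repressor of thrombospondin 1, was the steadiest of the group relative to U6. Its log2 level relative to U6 was -9.79, -9.42, -9.44 and -9.92 on control 4, 7, 10 and 13. With Tri-DAP it was -9.21, -9.12, -9.78 and -10.96 on arrays 5, 8, 11 and 14. With MDP it was -9.01, -9.79, -9.77 and -10.02 on arrays 6, 9, 12 and 15. The 3 groups overlapped, and only Tri-DAP 14 lay more than 1 unit below the control mean. The means were -9.65 ± 0.25 in control, -9.76 ± 0.85 with Tri-DAP and -9.65 ± 0.44 with MDP (SD, n = 4 each). The log2 fold change was -0.12 for Tri-DAP against control (SE 0.54, 95% interval -1.30 to 1.06) and -0.00013 for MDP against control (95% interval -1.18 to 1.18). Without Tri-DAP 8 the value for Tri-DAP was -0.33, and it turned to 0.28 without Tri-DAP 14. On a linear scale the interval for MDP ran from 0.442 to 2.26 times control, so that a change of more than about that size would lie outside it.

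miR-467b, reported to target lipoprotein lipase in macrophages, had lower means with both ligands. Relative to U6 it was -9.59, -9.62, -9.47 and -10.64 on control 4, 7, 10 and 13. With Tri-DAP it was -9.82, -9.54, -10.94 and -12.72 on arrays 5, 8, 11 and 14, and with MDP -9.80, -10.17, -11.11 and -11.25 on arrays 6, 9, 12 and 15. All 4 MDP values lay below 3 of the 4 control values, and the groups overlapped through control 13. The difference did not pass the test in either comparison, with a log2 fold change of -0.92 for Tri-DAP (SE 0.72, limma adjusted p = 0.998) and -0.75 for MDP (SE 0.72, adjusted p = 1). An exact permutation test over the arrays gave p = 0.229 and p = 0.171 (two-sided, adjusted p = 1 over 18 tests). The Tri-DAP value was -0.27 without Tri-DAP 14 and -1.33 without Tri-DAP 8. Between the ligands miR-467b differed by 0.17 (95% interval -1.39 to 1.73).

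miR-467c varied least between arrays in Ct. Its Ct was 29.6, 29.9, 29.4 and 29.9 on control 4, 7, 10 and 13, then 29.3, 30.8, 29.3 and 30.0 on Tri-DAP 5, 8, 11 and 14. On MDP 6, 9, 12 and 15 it was 30.3, 30.4, 29.4 and 29.3. The groups overlapped throughout. Relative to U6 the log2 fold change was -0.28 for Tri-DAP against control (95% interval -1.61 to 1.04) and -0.15 for MDP against control (95% interval -1.47 to 1.17). The Tri-DAP value turned to 0.18 without Tri-DAP 14 and was -0.66 without Tri-DAP 8.

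miR-467d showed the largest log2 fold change with MDP among the 6 miRNAs tested, from 3 of the 4 MDP arrays. Its Ct was 32.4, 32.8, 34.0 and 34.5 on control 4, 7, 10 and 13 and 33.4, 33.3, 33.0 and 33.4 on Tri-DAP 5, 8, 11 and 14. On MDP 6, 12 and 15 it was 32.4, 31.9 and 32.1, and MDP 9 gave no value. The 3 measured MDP wells came up before every control and every Tri-DAP well, although MDP 6 (32.375) and control 4 (32.390) all but coincided. Of 222 miRNAs with at least 3 values in each group, 1.80% had Ct values without overlap between MDP and control, and 1.39% of 216 between MDP and Tri-DAP. The exact permutation p on Ct was 0.0571 in both comparisons, the smallest that 3 values against 4 can give (two-sided, adjusted p = 0.514 over 18 tests).

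Relative to U6 the groups of miR-467d overlapped. Values were -12.56, -12.71, -14.69 and -15.10 on control 4, 7, 10 and 13, then -13.75, -11.65, -14.45 and -15.07 on Tri-DAP 5, 8, 11 and 14. On MDP 6, 12 and 15 they were -12.16, -13.21 and -12.37. Control 4 and 7 lay well above control 10 and 13. MDP 6 and 15 lay above all 4 control values, and MDP 12 between the pairs. The log2 fold change was 1.19 for MDP against control (SE 0.92, 95% interval -0.83 to 3.20, limma adjusted p = 1) and 1.15 for MDP against Tri-DAP (SE 0.92, 95% interval -0.87 to 3.16, adjusted p = 0.998). The exact permutation p was 0.286 in both (two-sided). For MDP against control the value without normalization was 1.29, which passed the unadjusted threshold of limma, as 1.64% of 244 miRNAs did. For MDP against Tri-DAP the value passed without Tri-DAP 8, at 1.84, as 17 of 233 miRNAs did, against 7 of 241 in the main fit. The median log2 fold change of all miRNAs tested was then 0.61, against 0.18 in the main fit. With the undetermined well of MDP 9 counted as Ct 40, the direction turned in both comparisons, to -0.67 and -0.70. For Tri-DAP against control the log2 fold change was 0.04, and it was -0.65 without Tri-DAP 8 and 0.49 without Tri-DAP 14.

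miR-467e, whose gene lies next but one to that of miR-467d, spread most within groups. Its Ct was 31.2, 33.6 and 32.6 on control 4, 7 and 10, with no value on control 13. With Tri-DAP it was 32.9, 31.0, 30.6 and 30.9 on arrays 5, 8, 11 and 14, and with MDP 30.9, 31.8, 30.2 and 36.3 on arrays 6, 9, 12 and 15. MDP 15 stood over 4 cycles after the other MDP wells. The log2 fold change relative to U6 was 0.93 for Tri-DAP against control (SE 1.36, 95% interval -2.03 to 3.89) and 0.08 for MDP against control (SE 1.36, 95% interval -2.88 to 3.04). For Tri-DAP it was 0.13 without Tri-DAP 8 and 1.19 without Tri-DAP 14, and 2.88 with the undetermined well of control 13 counted as Ct 40. For MDP it ranged from -0.57 without MDP 6 to 1.39 without MDP 15, and was 2.04 with control 13 at Ct 40. It was below 0 without control 7, control 10, MDP 6, MDP 9 or MDP 12. Leaving out a Tri-DAP array, or control 13 with its missing value, could not change it. Levels relative to the miRNA mean (the array's average over the 174 miRNAs with a value on every array) were compared for miR-467d and miR-467e. These log2 levels correlated with r = 0.03 over 10 arrays (Spearman's rho = 0.38). This r includes the late well of miR-467e on MDP 15 (-7.91). Between deviations from the group means r was 0.25, and whether the pair of neighbouring genes moved together was not tested.

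miR-669a, known for repressing MyoD in cardiac progenitors, was measured in all groups with no value on Tri-DAP 14. Its Ct was 29.8, 30.4, 30.2 and 29.8 on control 4, 7, 10 and 13 and 30.1, 30.4 and 30.9 on Tri-DAP 5, 8 and 11. On MDP 6, 9, 12 and 15 it was 29.4, 31.4, 29.2 and 31.1. The MDP arrays split into 2 below and 2 above the whole control range. The log2 fold change relative to U6 was -0.13 for Tri-DAP against control (95% interval -1.97 to 1.72) and -0.24 for MDP against control (95% interval -1.95 to 1.47). The former was -0.96 without Tri-DAP 8 and turned to 0.77 without Tri-DAP 11, while Tri-DAP 14 had no value to leave out. With Tri-DAP 14 counted as Ct 40 it was -2.93.

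**Figure D2:**
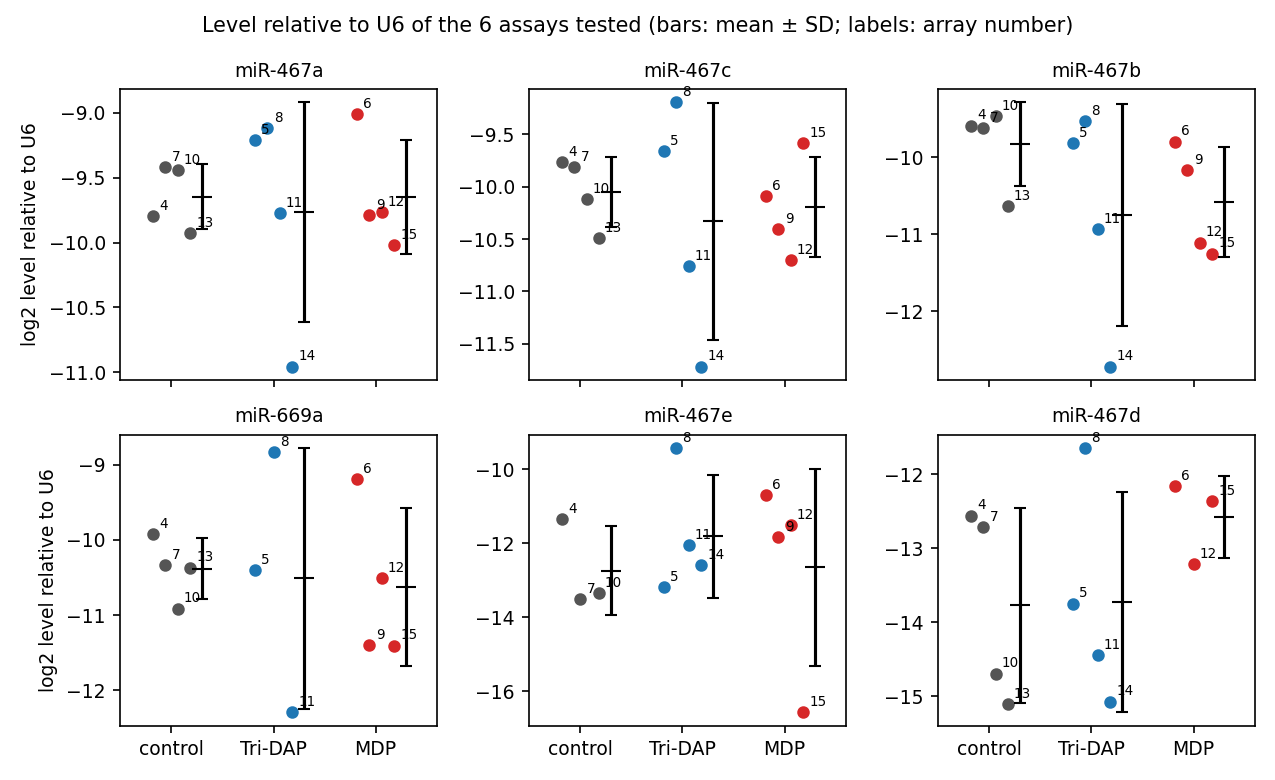
log2 level relative to U6 (vertical axis, a separate range in each panel) of the 6 miRNAs tested, with 1 point per array labelled by its number and the mean ± SD of each group as a bar. The groups overlap in all 6 panels, Tri-DAP 8 is the highest Tri-DAP array in each, and Tri-DAP 14 is the lowest for miR-467a, miR-467b, miR-467c and miR-467d.

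Of the remaining 3, miR-297c was measured in 2 control wells and 1 MDP well. These were control 4 at a Ct of 29.5, control 10 at 32.9 and MDP 9 at 30.5, and none of the Tri-DAP wells reached the threshold. miR-297b-5p showed the other arrangement, with 36.0 on Tri-DAP 5, 34.8 on Tri-DAP 8 and 34.9 on MDP 12 and no value in control. No array measured both miR-297 assays. miR-466h, which has been studied as a promoter of apoptosis under glucose deprivation, was measured once, on Tri-DAP 5 at 29.9. With 1 to 3 wells each, none of the 3 could be tested for a fold change, and Fisher's exact test above could not have passed for them.

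Because miR-466h was the only mouse miR-466 assay, the 2 rat assays of that name are given beside it, although they are outside the group. rno-miR-466b was measured on Tri-DAP 11 alone, at 33.7. rno-miR-466c was measured on Tri-DAP 5 and Tri-DAP 11, at 34.2 and 36.1. Thus the wells with a value of the 3 miR-466 assays were all on Tri-DAP 5 and Tri-DAP 11, 1 for miR-466h and 3 for the rat assays. No other array gave one, whether control, MDP or Tri-DAP. These wells come from 2 arrays only and are not separate observations of a treatment. How many rarely measured assays had values in a single group was not examined. The rat assays were not tested, and neither were the 3 assays together.

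Over the group, none of the 6 miRNAs tested passed an unadjusted limma p of 0.05 in any comparison. Among all miRNAs tested, 1.69% of 237 passed for Tri-DAP against control, 1.23% of 244 for MDP against control and 2.90% of 241 for MDP against Tri-DAP, so that 0 of 6 is no result about these miRNAs in particular. The adjusted p of the 6 was 0.998 or above in every comparison. The median log2 fold change of the 6 was -0.12 for Tri-DAP against control, with 4 lower and 2 higher, where the median of all miRNAs tested was -0.24 and 75.1% of them were lower. For MDP against control it was -0.07, with 4 lower and 2 higher, beside -0.02 over all miRNAs, of which 54.1% were lower. For MDP against Tri-DAP it was 0.13, with 4 higher and 2 lower, beside 0.18 over all miRNAs, of which 25.3% were lower. Relative to U6 the values of each of the 6 overlapped between the groups in every comparison, while 1.86%, 0.450% and 1.39% of all miRNAs with at least 3 values in each group did not overlap in these comparisons. The comparisons with control share the 4 control arrays.

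**Figure D3:**
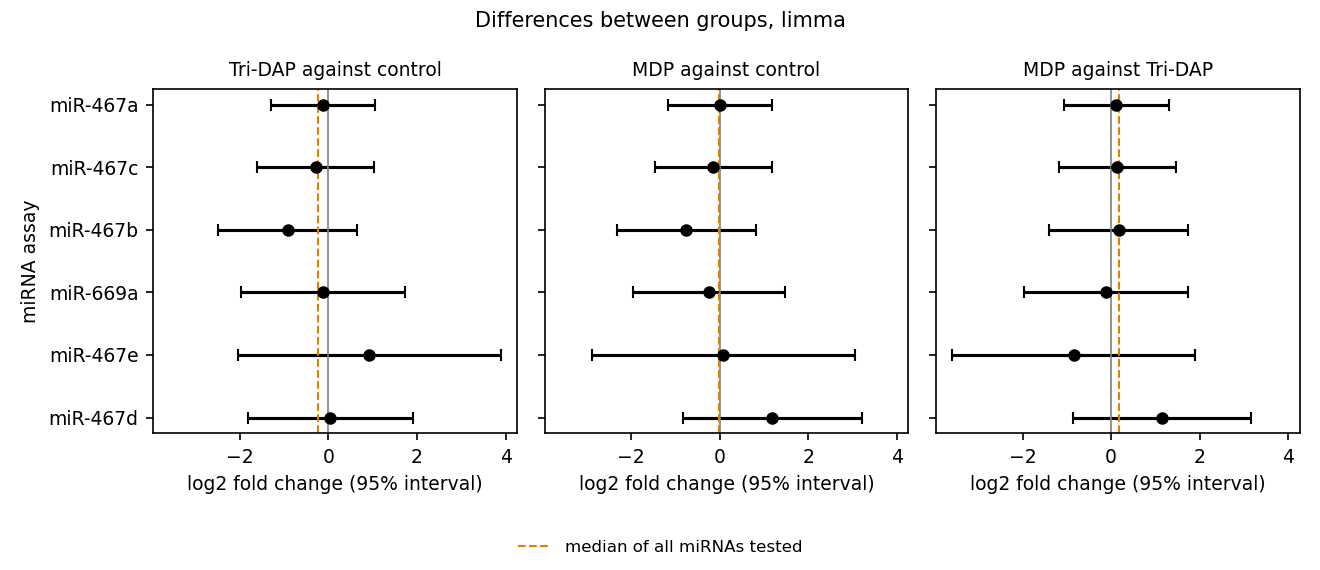
log2 fold change (horizontal axis) of the 6 miRNAs tested in the 3 comparisons, as points with 95% intervals from limma, with 0 as a grey line and the median of all miRNAs tested as a dashed line. All 18 intervals include 0, and the widest belong to miR-467e.

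A pair of other miRNA clusters on the array was set beside the group. Of the 47 assays for the Dlk1-Dio3 domain, which like Sfmbt2 is imprinted, 24 were tested for Tri-DAP against control, and 21 of these were lower, with a median log2 fold change of -0.75. For MDP against control the median over 27 tested was -0.03. The 6 miRNAs of the miR-17-92 cluster, a locus tied to cell proliferation, had medians of -0.27 and -0.15. In neither list did a miRNA pass the unadjusted threshold in any of the 3 comparisons. The medians of the miR-467 group were nearer to 0 than those of the Dlk1-Dio3 list for Tri-DAP, a difference that was not tested.

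The spread between arrays of one group differed widely among the members. In Ct the within-group SD was 0.73 for miR-467a, 0.68 for miR-467b and 0.55 for miR-467c, which compares with a median of 0.78 over the 174 miRNAs measured on all arrays. Among the 17 miRNAs measured on 11 arrays the median was 1.49, with 0.64 for miR-467d, 0.74 for miR-669a and 1.88 for miR-467e. miR-467d and miR-669a thus varied less in Ct than most miRNAs measured as often, and miR-467e more. Relative to U6 the SD of miR-467a fell to 0.57 and that of miR-467d rose to 1.25.

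Whether the miRNAs of the intron rose and fell together was examined over single arrays. To remove the shift that the U6 reference gives to all values of an array, levels were taken relative to the miRNA mean. The arrays come from 4 isolations and are not 12 independent samples, so the correlations are given as a description, with no test. Of the 15 pairs among the 6 miRNAs, 13 had a correlation above 0, with a median r of 0.30. When the 2 arrays farthest from the median of the first miRNA of each pair were left out, 9 of the 15 were above 0, and r went as low as -0.52, for miR-467e and miR-467b. On Ct without any reference the median r was 0.16. The highest values belonged to miR-467a and miR-467b (r = 0.68, rho = 0.70) and to miR-467b and miR-467c (r = 0.62, rho = 0.81), over 12 arrays. For miR-467a and miR-467c r was 0.50 and rho 0.59. Without the 2 farthest arrays r was 0.49, 0.37 and 0.55 for these 3 pairs. Relative to U6 they had r of 0.87, 0.77 and 0.75, values that include the shared U6 reading of each array.

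On single arrays, miR-467b relative to the miRNA mean was lowest on Tri-DAP 14 (-2.69), MDP 15 (-2.58) and control 13 (-1.86), 1 array of each group. miR-467a was lowest on MDP 15 (-1.35) and control 13 (-1.15), followed by Tri-DAP 8 (-1.02). miR-467c was lowest on control 13 (-1.72), Tri-DAP 14 (-1.68) and MDP 6 (-1.68). Low arrays thus occurred in all 3 groups. The 3 lowest arrays of miR-467b bear consecutive numbers, and whether they share an isolation is not given.

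**Figure D4:**
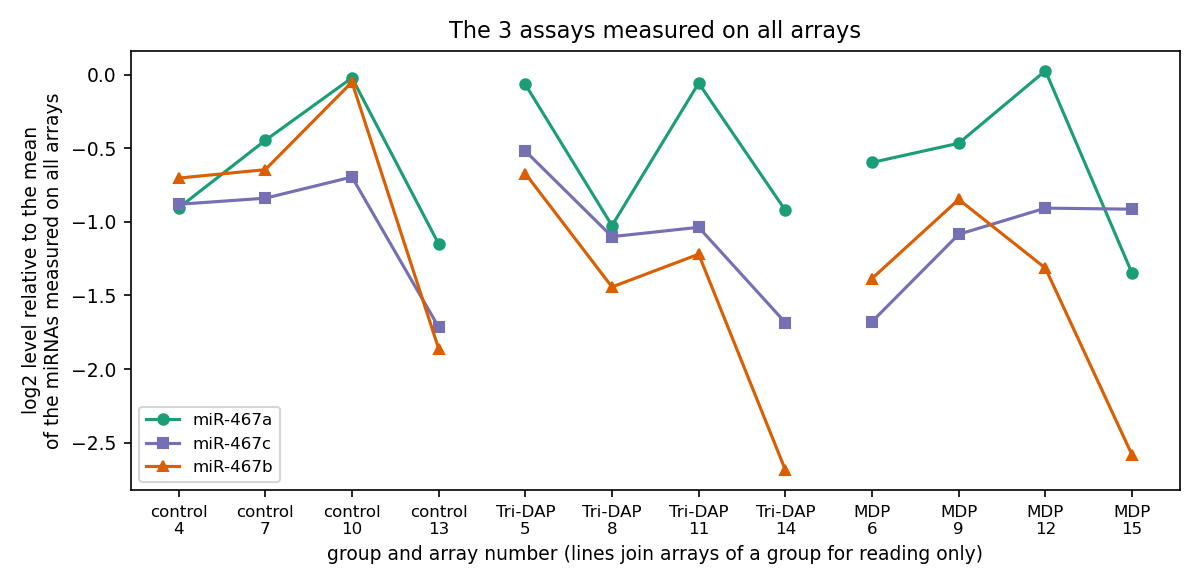
log2 level relative to the miRNA mean of each array (vertical axis) of miR-467a, miR-467b and miR-467c on each array (horizontal axis, by group and array number). Lines join the arrays of a group for reading only. miR-467b reaches from -2.69 on Tri-DAP 14 to -0.05 on control 10, and control 13 is low for all 3.

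Outside the group, the 171 other miRNAs measured on all arrays were ordered by the likeness of their level across the 12 arrays to the mean of miR-467a, miR-467b and miR-467c. Relative to the miRNA mean the first 5 were miR-146a (Pearson's r = 0.89), miR-10b (0.85), miR-126-3p (0.83), miR-672 (0.83) and miR-150 (0.80), where the median of all 171 was 0.06. Relative to U6 they were miR-146a (0.94), miR-335-5p (0.92), miR-27a (0.91), miR-150 (0.90) and miR-126-3p (0.90), where the median was 0.58. miR-146a, which nuclear factor kappa B induces, and miR-126-3p, the endothelial miRNA, thus stood among the first 5 on both scales, as did miR-150. For miR-146a r was 0.79 relative to the miRNA mean without the 2 arrays farthest from the median, and 0.91 between deviations from the group means. These 5 were picked as the highest of 171, and no test was made of them.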

How the data were processed

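Total RNA of each sample was reverse-transcribed with a rodent primer pool and run by the authors on one array for 40 cycles with an automatic threshold. The authors deposited Ct values in cycles, with 40 where no threshold was reached, and normalized values on a log2 scale, which are Ct minus the mean of the 4 U6 wells of the array (checked here, largest difference 5.33e-15). A further deposited table holds the authors' fold changes and was not used, nor were 12 unnamed columns of the Ct table. The arrays came from 4 cell isolations. Which arrays share one is not given in the sources used here, so no pairing was made and the tests treat the arrays as independent.

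Here the sign of the deposited log2 values was turned and wells at 40 were set missing. A miRNA was tested with at least 2 values in each of both groups, in 1 fit over all 12 arrays (lmFit and eBayes, limma 3.58.1, R 4.3.3). Calls were made at an unadjusted p of 0.05, the level named in the methods, with Benjamini-Hochberg adjustment over all miRNAs beside it. The fit was tested on simulated data. Exact permutation tests over arrays (scipy 1.17.1) were two-sided. Ct carries no read depth, and the number of arrays limits the precision. All members were named, U6 and the miRNAs most like the members were added by rank, and the miR-17-92 and marker lists were written by hand. The Dlk1-Dio3 list was taken from the RefSeq annotation by position and matched to the assays by name. The members and lists were chosen with earlier results of these data known. Replicates measure the spread between cell preparations and arrays together. Alternatives are given at the end. Where a value was computed without an array, the remaining arrays of all groups shared the estimate of the spread.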

Additional observations from a re-analysis of the deposited data

Results flagged for a closer look

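Relative to U6, miR-467b on control 13 had a log2 level of -10.64, against -9.62 to -9.47 on the 3 other control arrays. The gap to the nearest of these was 0.872 of the whole range of the group, past the 95% limit of Dixon's test for 4 samples. It was the only such value among 30 groups of 4 examined over both scales, and chance gives about 1 in 20.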

How the results depend on the processing

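No paired analysis was made. The groups share no replicate numbers, and neither the labels nor the methods say which arrays came from which of the 4 isolations. The array numbers do run in the repeated order control, Tri-DAP, MDP, starting with control 4, Tri-DAP 5 and MDP 6. Pairing by this order would be a guess and was not tested, and the unpaired tests ignore any such pairing. In this order, relative to U6, miR-467b was lower on every MDP array than on its control array. miR-467d and miR-467e were higher wherever the MDP array and its control array both had a value, and the other miRNAs tested went both ways. For miR-467d this leaves out MDP 9. For miR-467e it leaves out the late well of MDP 15, because control 13 gave no value. With Tri-DAP all 6 miRNAs tested went both ways in this order. What share of all miRNAs went a single way was not examined, so these directions are no result about the group. None of the 6 miRNAs tested passed an unadjusted p of 0.05 in any comparison under the other settings run, except miR-467d. For MDP against control it passed without normalization (1.29), as 1.64% of 244 miRNAs did. For MDP against Tri-DAP it passed without Tri-DAP 8 (1.84), as 17 of 233 miRNAs did. Of the log2 fold changes recomputed, 342 kept their direction and their side of the threshold, 2 passed it and 43 changed sign, and the cause was not tested. Many of the 342 could not change direction, so their number does not measure stability. Some settings alter the test and not the log2 fold change, and an array of the group not compared leaves it unchanged when left out.

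With undetermined wells at Ct 40, the log2 fold change of miR-467d turned to -0.67 for MDP against control and -0.70 for MDP against Tri-DAP, and that of miR-669a for MDP against Tri-DAP to 2.69, each through 1 well. Under this setting miR-669a for Tri-DAP against control moved from -0.13 to -2.93, and miR-467e from 0.93 to 2.88 for Tri-DAP and from 0.084 to 2.04 for MDP against control, again through 1 well each. With a Ct limit of 35, which leaves out the well of MDP 15, miR-467e for MDP against Tri-DAP turned to 0.47, and miR-297b-5p was measured on 2 arrays and miR-467e on 10. Relative to the miRNA mean, miR-467a turned to 0.11 for Tri-DAP against control, 0.035 for MDP against control and -0.079 for MDP against Tri-DAP, where miR-467c turned to -0.061 and miR-467b to -0.028. For MDP against Tri-DAP, miR-669a turned to 0.056 with U6 and snoRNA202 as reference and to 0.17 without normalization, where miR-467a turned to -0.011.

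With single arrays left out, Tri-DAP against control ranged from -0.33 to 0.28 for miR-467a, -0.66 to 0.18 for miR-467c, -0.65 to 0.49 for miR-467d and -0.96 to 0.77 for miR-669a. MDP against control ranged from -0.21 to 0.12 for miR-467a, -0.35 to 0.021 for miR-467c, -0.57 to 1.39 for miR-467e and -0.72 to 0.017 for miR-669a. MDP against Tri-DAP ranged from -0.28 to 0.33 for miR-467a, -0.33 to 0.52 for miR-467c, -1.49 to 0.47 for miR-467e, -1.01 to 0.72 for miR-669a and -0.49 to 0.58 for miR-467b. The ranges above are those of miRNAs whose direction changed. Direction was kept for Tri-DAP against control by miR-467b (-1.33 to -0.27) and miR-467e (0.13 to 1.62). It was kept for MDP against control by miR-467d (0.74 to 1.59) and miR-467b (-1.02 to -0.53). For MDP against Tri-DAP miR-467d kept it (0.7 to 1.84).

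Among all miRNAs, 4 were called for Tri-DAP against control, 3 for MDP against control and 7 for MDP against Tri-DAP. For Tri-DAP against control there were 8 with undetermined wells at Ct 40, 7 without normalization, 1 over miRNAs measured on all 12 arrays and 1 to 12 with single arrays left out, the most without Tri-DAP 8. For MDP against control there were 1 with the Ct limit, with at least 3 values and by the methods' t-test, 5 relative to the miRNA mean and with 2 groups in the fit, 0 over miRNAs measured on all arrays, and 1 to 6 with single arrays left out. For MDP against Tri-DAP there were 4 with the Ct limit and by the methods' t-test, 3 with at least 3 values, 0 over miRNAs measured on all arrays, and 2 to 17 with single arrays left out. A Ct near 35 rests on little RNA, and miR-297c, miR-297b-5p and miR-466h gave too few wells for any fold change.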
